A study of Mus musculus with 6 samples.

Results

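The unfolded protein response and the amino acid response were followed through 48 genes, out of 18193 genes tested on the same arrays, in mouse embryonic fibroblasts with and without FHL2. The genes were taken from a list of endoplasmic reticulum (ER) stress and ATF4 pathway genes. Each was represented by the probe set that carried its symbol alone and had the highest mean over the 6 arrays, and all 48 were measured. They fell into 7 branches: 8 stress sensors and transcription factors, 14 ER chaperones and folding enzymes, 8 genes of ER-associated degradation, 3 effectors of ATF4, 3 amino acid transporters, 6 enzymes of amino acid and one-carbon synthesis, and 6 tRNA synthetases. The branches follow the known roles of the genes.

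FHL2 is an adaptor protein of LIM domains that binds transcription factors and integrins. The knockout group held clones E, H and J of fibroblasts derived from FHL2-/- mice, and the wild type group held clones E, F and I. All 6 clones had become immortal spontaneously in culture, no treatment is given for either group, and 1 array was hybridised per clone. Each line is thus 1 clone, and the labels do not say which alleles were used or how many embryos the clones go back to, so p-values measure the spread between clones. Values are RMA intensities on the log2 scale, a difference is the knockout mean minus the wild type mean with its standard error (SE) from limma, and n = 3 clones per genotype throughout. A gene passed where its p-value, adjusted by Benjamini-Hochberg over all 18193 genes, lay under 0.05. Values per clone run E, H, J for knockout and E, F, I for wild type. Each probe set has its own brightness, so levels of different genes are not compared in the results.

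Fhl2 itself was read at 6.01, 6.44 and 6.57 in knockout clones, against 9.88, 8.57 and 9.64 in wild type clones. All knockout clones lay below all wild type clones, and Fhl2 fell by 3.02 (SE 0.35, adjusted p = 0.00400). An exact two-sided permutation test gave p = 0.1, the smallest value that 3 clones against 3 allow; the sources used here do not say whether its single probe set lies in the deleted part. Clone H was unlike the other knockout clones. Its correlation over genes was 0.964 and 0.968 with the other knockout clones, against 0.991 between those and 0.988 to 0.991 between wild type clones. Sex-linked transcripts also set it apart: Xist reached 9.82 in H against at most 5.11 elsewhere, and Eif2s3y 2.92 against 7.47 to 8.79. Results that rest on clone H are therefore given with and without it. The label was checked against marker lists, only roughly since brightness differs between probe sets. The 10 fibroblast markers summed to 122.3 to 123.4 in knockout clones, against 118.3 to 121.9 in wild type clones, and all lay at or above the median gene level. They did not move together: Pdgfra and Dcn were called higher (1.76 and 2.04) and Thy1 and Pdgfrb lower (-1.34 and -0.64). Of 6 endothelial markers 0 reached that level on average, but Tek was called higher (4.27), at 8.36, 4.68 and 8.91 in knockout clones, against 3.27, 3.31 and 2.54 in wild type clones, and the sum was 24.4 to 27.4 in knockout clones, against 20.5 to 22.8 in wild type clones. The blood cell list (28.4 to 30.2 for knockout, 27.6 to 28.0 for wild type) held Csf1r above the median level, with 0 calls and Ptprc near the bottom of the scale. The neural list (25.2 to 28.3 for knockout, 28.8 to 30.6 for wild type) held Tubb3 and Nes, both called lower (-3.20 and -0.81). Of 7 epithelial markers Epcam alone reached the median level and was called higher (0.43). The array medians (4.52 to 4.54 for knockout, 4.44 to 4.46 for wild type) also lay apart by genotype. So did the 3' to 5' difference of Gapdh, by a narrow gap (-0.119 to -0.045 for knockout, -0.041 to 0.052 for wild type). That of actin overlapped (0.103 to 0.235 for knockout, 0.093 to 0.133 for wild type). The part of these array measures in the results was not tested. In bulk RNA, fewer cells of a type and less RNA per cell cannot be told apart.

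Cells meet unfolded protein in the ER through 3 membrane sensors. IRE1, encoded by Ern1, splices the RNA of Xbp1; ATF6 is cut to release a transcription factor; and PERK, encoded by Eif2ak3, phosphorylates eIF2. XBP1 and ATF6 act on chaperone and degradation genes through the ER stress element and the unfolded protein response element. Phosphorylated eIF2 also follows from amino acid shortage through the kinase GCN2 and, by favouring translation of ATF4, raises genes for amino acid import, serine, glycine and asparagine synthesis and tRNA charging. Splicing, cleavage and phosphorylation were not measured on these arrays.

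Several genes for making, importing and charging amino acids fell in knockout clones, among them Psph, Phgdh, Slc7a1 and Nars. Of the ER genes, Dnajb9, Derl2 and Sel1l were among those that rose and Edem1 among those that fell. Among the 18 genes of the 4 amino acid branches (effectors, transporters, synthesis and tRNA synthetases), 9 (50%) fell in knockout clones, 1 (5.56%) rose and 8 did not pass. Over all genes tested, 10.0% were called lower and 9.04% higher. The counts of each branch below are to be read beside these shares. The median difference of the 18 genes was -1.004, against 0.04 over all genes. Among the 30 ER genes and regulators, 5 (16.7%) fell, 5 (16.7%) rose and 20 did not pass, with a median of -0.03. All 3 knockout clones lay below all 3 wild type clones in 11 of the 18 amino acid genes and in 9 of the 30 ER genes and regulators, where 18.2% of all genes did. They lay above in 1 of 18 and 7 of 30, where 20.7% of all genes did. Whether the amino acid genes differ from the ER genes in these counts was not tested.

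The count of falling genes depended on single clones, in the members as in all genes. Without knockout clone H, 13 of the 18 amino acid genes were called lower with a median of -1.13, and 8 of the 30 ER genes and regulators, where the share over all genes was 13.4%. The genes called higher were then 1 and 5, where the share over all genes was 12.7%. Leaving out knockout clone E, knockout clone J, or wild type clone E, F or I in turn gave 5, 5, 5, 7 and 5 amino acid genes called lower, with medians from -1.08 to -0.79, while the share called lower over all genes was 4.86% to 6.51%. The same 5 fits called 4, 2, 1, 1 and 2 of the ER genes and regulators lower and 4 of them higher each time, where 4.27% to 5.32% of all genes were called higher. In the amino acid genes they called 1, 1, 0, 0 and 0 higher.

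**Figure D1:**
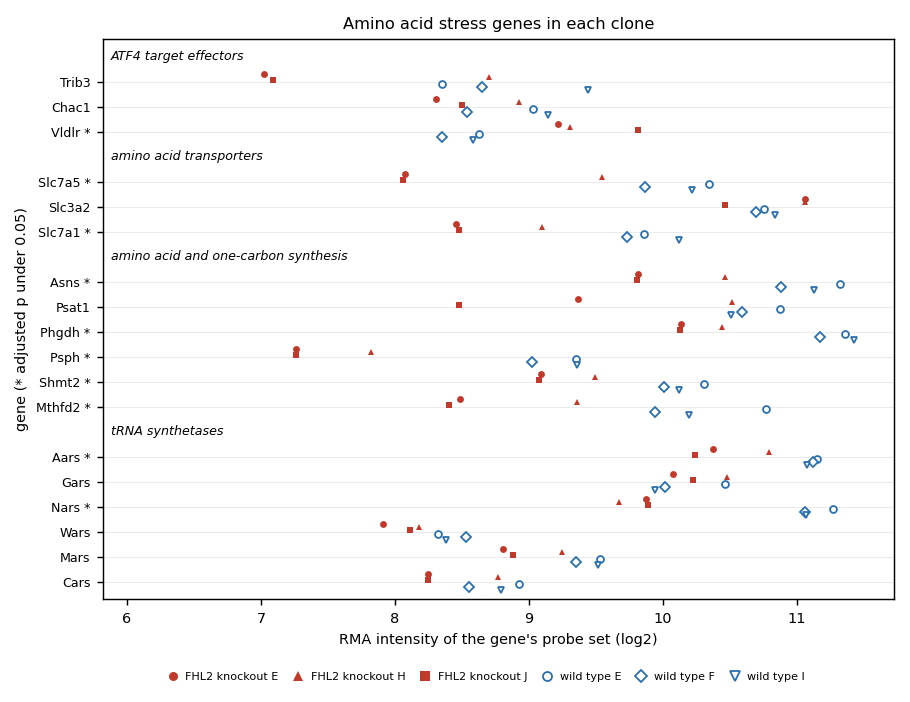
Log2 intensity of each of the 18 amino acid genes in each clone, by branch, with filled red symbols for FHL2 knockout clones and open blue symbols for wild type clones; an asterisk marks an adjusted p under 0.05. In the 6 synthesis genes the red triangle of knockout clone H lies to the right of the other knockout clones and nearest the wild type clones.

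Serine is made from a glycolytic intermediate in 3 steps, by PHGDH, PSAT1 and PSPH. SHMT2 then turns serine to glycine in mitochondria and passes a carbon unit to MTHFD2, and ASNS makes asparagine. This branch had the most genes called among the amino acid branches: 5 of 6 fell, 0 rose, and the median difference was -1.15 (-1.52 without clone H, when 6 of 6 were called lower). Psph, the last enzyme of serine synthesis, was read at 7.27, 7.82 and 7.26 in knockout clones, against 9.35, 9.03 and 9.36 in wild type clones. The groups lay far apart with clone H the highest knockout clone, and Psph fell by 1.80 (SE 0.19, adjusted p = 0.00311), to a level 3.47-fold lower. Phgdh, the first enzyme of the path, was read at 10.14, 10.44 and 10.13 in knockout clones, against 11.36, 11.17 and 11.43 in wild type clones. It fell by 1.09 (SE 0.13, adjusted p = 0.00439) with a narrow spread in both groups. Its 4 probe sets gave differences of -1.35 to -1.09, all passed. All 4 are of a kind that can cross-hybridize, so Phgdh has no value where such probe sets were omitted. Psat1, the middle enzyme, was read at 9.36, 10.51 and 8.48 in knockout clones, against 10.88, 10.59 and 10.51 in wild type clones. Here clone H lay level with wild type clone I, and the difference of -1.21 did not pass (SE 0.48, adjusted p = 0.135). Without clone H it was -1.74 (adjusted p = 0.00536), without knockout clone J -0.72 (adjusted p = 0.270), and without knockout clone E or any wild type clone -1.28 to -1.10.

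The mitochondrial one-carbon genes lay lower in knockout clones too. Shmt2 was read at 9.09, 9.50 and 9.07 in knockout clones, against 10.30, 10.01 and 10.12 in wild type clones, and fell by 0.93 (SE 0.15, adjusted p = 0.0109). Mthfd2 was read at 8.48, 9.36 and 8.41 in knockout clones, against 10.77, 9.94 and 10.19 in wild type clones, and fell by 1.55 (SE 0.32, adjusted p = 0.0210). Neither gene had overlapping groups, and in both clone H was the knockout clone nearest to wild type. Asparagine synthetase, Asns, was read at 9.81, 10.46 and 9.81 in knockout clones, against 11.32, 10.88 and 11.13 in wild type clones. Its groups did not overlap, and it fell by 1.08 (SE 0.22, adjusted p = 0.0191). The calls of Phgdh, Psph and Shmt2 held with any 1 clone left out. Those of Asns and Mthfd2 were lost without knockout clone E or J or wild type clone E or I, at differences of -1.07 to -0.97 (adjusted p 0.0612 to 0.0752) and -1.61 to -1.32 (adjusted p 0.0588 to 0.0728).

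The ATF4 composite site, TGATGNAA, is shown in the promoters of a synthesis enzyme and a tRNA synthetase whose transcripts fell. Both stretches were cut from RefSeq windows of GRCm38.p6 that run from 250 bases before to 50 after a gene's start. Capitals mark the fixed letters of the site, which may stand on either strand, and 20 bases flank it. Asns lies at chr6:7693205-7693252 (minus strand) and Aars, which holds 2 sites, at chr8:111033710-111033878 (plus strand).
Asns: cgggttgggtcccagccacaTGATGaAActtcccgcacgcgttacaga
Aars: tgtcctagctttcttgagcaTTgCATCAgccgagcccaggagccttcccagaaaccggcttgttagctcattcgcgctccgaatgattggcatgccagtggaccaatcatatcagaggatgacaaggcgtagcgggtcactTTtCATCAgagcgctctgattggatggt

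Transporters bring in the amino acids that these enzymes do not make. SLC7A5 and its heavy chain SLC3A2 exchange large neutral amino acids, and SLC7A1 carries cationic ones. Of the 3 genes, 2 fell and 1 did not pass, with a median difference of -1.23. Slc7a5 was read at 8.08, 9.55 and 8.06 in knockout clones, against 10.35, 9.87 and 10.22 in wild type clones. Clone H lay between the other knockout clones and the wild type clones. Slc7a5 fell by 1.58 (SE 0.41, adjusted p = 0.0432), and without clone H it fell by 2.08 (adjusted p = 5.74e-04). Without any 1 of the other 5 clones its call was lost, at differences of -1.72 to -1.33 (adjusted p 0.0887 to 0.141). Slc7a1 was read at 8.45, 9.10 and 8.48 in knockout clones, against 9.86, 9.73 and 10.12 in wild type clones. The groups did not overlap, and it fell by 1.23 (SE 0.21, adjusted p = 0.0113), a call that held with any 1 clone left out. Slc3a2 was read at 11.06, 11.06 and 10.47 in knockout clones, against 10.76, 10.70 and 10.83 in wild type clones. Its groups overlapped, and the difference of 0.10 did not pass (SE 0.18, adjusted p = 0.751, 95% interval -0.33 to 0.53). The difference between the light and the heavy chain was not tested.

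tRNA synthetases load amino acids onto their tRNAs. Of the 6 members, 2 fell and 0 rose, and the other 4 missed the threshold, with a median difference of -0.42. The asparagine enzyme Nars was read at 9.87, 9.67 and 9.89 in knockout clones, against 11.27, 11.06 and 11.07 in wild type clones. Its knockout clones lay close together and far below wild type, clone H being the lowest, and it fell by 1.32 (SE 0.12, adjusted p = 0.00181). Aars, the alanine enzyme, was read at 10.37, 10.80 and 10.24 in knockout clones, against 11.15, 11.12 and 11.08 in wild type clones, without overlap. It fell by 0.65 (SE 0.16, adjusted p = 0.0354), but leaving out any clone except H ended the call (-0.67 to -0.53, adjusted p 0.0889 to 0.114), as did taking the mean of its probe sets (-0.61, adjusted p = 0.0508). Mars, which loads methionine and is annotated as Mars1 on this array, was read at 8.81, 9.25 and 8.88 in knockout clones, against 9.53, 9.35 and 9.51 in wild type clones. The groups did not overlap, the difference was -0.49 (SE 0.14, adjusted p = 0.0610), and without clone H it passed (-0.62, adjusted p = 0.0108). Wars, for tryptophan, differed by -0.35 (SE 0.12, adjusted p = 0.0905), also without overlap. Of its 4 probe sets 2 were called lower, and their mean passed (-0.43, adjusted p = 0.0261). Cars, for cysteine, differed by -0.34 with overlapping groups (SE 0.18, adjusted p = 0.260), and by -0.51 without clone H (adjusted p = 0.0422). A second and dimmer probe set of Cars differed by -0.007 with all clones kept (adjusted p = 0.973 over all probe sets). Gars, for glycine, was read at 10.07, 10.48 and 10.22 in knockout clones, against 10.46, 10.01 and 9.94 in wild type clones, which overlap at a difference of 0.12 (SE 0.18, adjusted p = 0.694).

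Of the 3 effectors of ATF4, 1 rose and 2 did not pass, with differences of both signs. Trib3, a pseudokinase that feeds back on ATF4 and CHOP, was read at 7.02, 8.70 and 7.09 in knockout clones, against 8.35, 8.65 and 9.44 in wild type clones. Clone H lay inside the wild type range and the other knockout clones below it. The difference of -1.21 did not pass (SE 0.51, adjusted p = 0.154), and without clone H it was -1.76 (adjusted p = 0.00829). Chac1, an enzyme that breaks down glutathione, was read at 8.31, 8.92 and 8.50 in knockout clones, against 9.03, 8.54 and 9.15 in wild type clones. Its groups overlapped at a difference of -0.33 (SE 0.22, adjusted p = 0.356). Without clone H the difference was -0.50 and did not pass either (adjusted p = 0.120). Vldlr, a lipoprotein receptor, was read at 9.21, 9.30 and 9.81 in knockout clones, against 8.63, 8.35 and 8.58 in wild type clones, so that every knockout clone lay above every wild type clone. It rose by 0.92 (SE 0.18, adjusted p = 0.0184), all 6 of its probe sets had a positive difference (0.47 to 0.92, 3 of them passed). The call was lost with a probe set not open to cross-hybridization (0.60) and without wild type clone E, F or I (0.84 to 0.98, adjusted p 0.0525 to 0.0649). Stretches of Chac1 and Vldlr are shown as examples of the ATF4 composite site, which all 3 effectors hold. Of these, Vldlr alone was called, and what the site does in these cells was not tested. Capitals mark the fixed letters, here on the opposite strand of chr2:119351029-119351076 for Chac1 and chr19:27216800-27216847 for Vldlr (both plus strand, GRCm38.p6, RefSeq).
Chac1: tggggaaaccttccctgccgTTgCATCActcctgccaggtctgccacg
Vldlr: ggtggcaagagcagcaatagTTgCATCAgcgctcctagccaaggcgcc

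Upstream of these genes, the 8 sensors and transcription factors showed 1 fall, 0 rises and a median difference of -0.08. Of all genes tested, 10.0% fell and 9.04% rose. Atf4, which drives the amino acid response, was read at 11.54, 11.62 and 11.59 in knockout clones, against 11.78, 11.65 and 11.70 in wild type clones. All knockout clones lay below all wild type clones by a small step, and the difference of -0.12 did not pass (SE 0.09, adjusted p = 0.410, 95% interval -0.34 to 0.10). ATF4 is set largely by translation, which RNA levels do not show. Further bZIP factors gave -0.29 for Atf5 (adjusted p = 0.511) and 0.05 for Cebpg (adjusted p = 0.823), both with overlapping groups. Without clone H Atf5 differed by -0.52 (adjusted p = 0.153).

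Ddit3, the gene of the death-linked factor CHOP, was read at 9.41, 8.76 and 9.09 in knockout clones, against 9.56, 10.00 and 9.83 in wild type clones. The groups did not overlap, and the difference was -0.70 (SE 0.20, adjusted p = 0.0540). Without knockout clone E it passed at -0.87 (adjusted p = 0.0426). A second and dimmer probe set of Ddit3 lay the other way, at 6.17, 6.02 and 6.95 in knockout clones, against 5.78, 5.20 and 5.14 in wild type clones (1.01, adjusted p = 0.0604 over all probe sets), and the mean of both differed by 0.15, so its direction is not settled here.

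Among the sensors, Atf6 was read at 6.94, 7.35 and 7.22 in knockout clones, against 7.87, 8.15 and 7.64 in wild type clones. The groups did not overlap, and Atf6 fell by 0.71 (SE 0.17, adjusted p = 0.0344). All 3 of its probe sets were called lower (-0.88 to -0.71), but with the brightest the call was lost without knockout clone E or J or wild type clone E or F (-0.74 to -0.58, adjusted p 0.0922 to 0.104). Eif2ak3, the gene of PERK, was read at 8.90, 8.81 and 8.72 in knockout clones, against 8.40, 8.61 and 8.05 in wild type clones. Knockout clones lay above wild type clones here, at a difference of 0.46 that did not pass (SE 0.16, adjusted p = 0.0975). Ern1, the gene of IRE1, varied within both groups (0.30, SE 0.32, adjusted p = 0.570). Xbp1, its target RNA, was read at 10.38, 10.42 and 10.37 in knockout clones, against 10.52, 10.30 and 10.44 in wild type clones, and its overlapping groups differed by -0.03 (95% interval -0.27 to 0.21, adjusted p = 0.873).

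**Figure D2:**
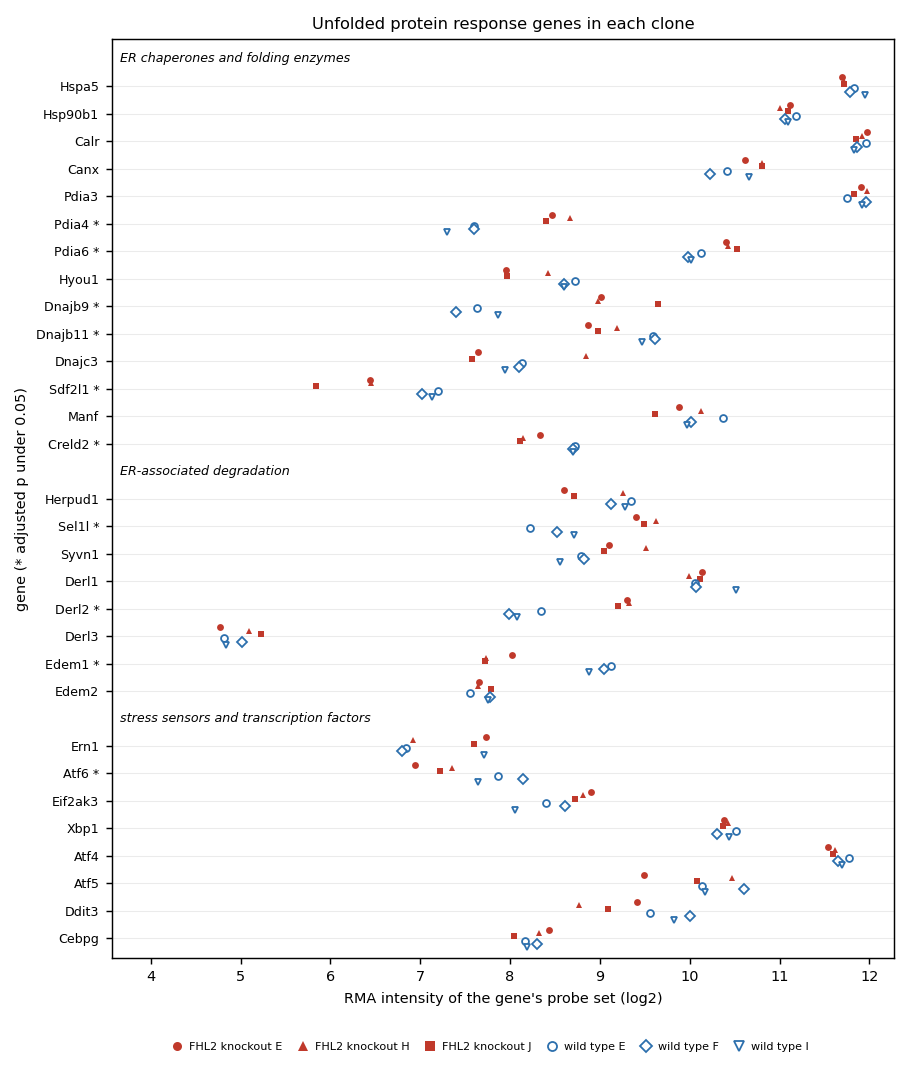
Log2 intensity of each of the 30 ER genes and regulators in each clone, by branch, with filled red symbols for FHL2 knockout clones and open blue symbols for wild type clones; an asterisk marks an adjusted p under 0.05. The main ER chaperones overlap or nearly touch between groups, while Dnajb9, Pdia4, Derl2 and Sel1l lie higher and Edem1 lower in knockout clones.

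Of the 14 ER chaperones and folding enzymes, 3 rose, 3 fell and 8 did not pass, with a median difference of -0.04. Over all genes tested, 9.04% rose and 10.0% fell, and the difference from those shares was not tested. The chaperones best known as readouts of ER stress were among those that did not pass. Hspa5, the HSP70 chaperone BiP that holds the sensors inactive, was read at 11.69, 11.72 and 11.72 in knockout clones, against 11.83, 11.79 and 11.95 in wild type clones. On this probe set knockout clones lay just below wild type clones, at a difference of -0.15 (SE 0.09, adjusted p = 0.333, 95% interval -0.37 to 0.08). Its dimmer probe sets gave 0.07 and 0.32, the last with all knockout clones above all wild type clones, and the mean of the 3 gave 0.08. None of these passed, and Hspa5 has no settled direction here. Its HSP90 partner Hsp90b1 differed by -0.04 (95% interval -0.27 to 0.18, adjusted p = 0.800). The lectin chaperones gave 0.03 for Calr (95% interval -0.20 to 0.26, adjusted p = 0.869) and 0.31 for Canx (95% interval -0.02 to 0.64, adjusted p = 0.179). Their disulfide partner Pdia3 differed by 0.03 (95% interval -0.22 to 0.28, adjusted p = 0.882). The intervals of Hsp90b1, Calr and Pdia3 leave room for differences between -0.27 and 0.28.

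The HSP40 cochaperone Dnajb9 rose the most of the 48 genes. It was read at 9.01, 8.98 and 9.65 in knockout clones, against 7.63, 7.40 and 7.87 in wild type clones. Clone J was the highest, clone H was level with clone E, and all 3 lay far above wild type. Dnajb9 rose by 1.58 (SE 0.22, adjusted p = 0.00678), which is 2.99-fold. Another HSP40 of the ER, Dnajb11, was read at 8.87, 9.19 and 8.98 in knockout clones, against 9.59, 9.61 and 9.47 in wild type clones. It fell by 0.55 (SE 0.12, adjusted p = 0.0240) without overlap, and Sdf2l1, which works in a complex with it, fell by 0.87 (SE 0.18, adjusted p = 0.0229). The levels of Sdf2l1 were 6.44, 6.45 and 5.84 in knockout clones, against 7.20, 7.02 and 7.13 in wild type clones. The third HSP40, Dnajc3, which inhibits PERK, was read at 7.64, 8.85 and 7.57 in knockout clones, against 8.13, 8.10 and 7.95 in wild type clones. Clone H lay above and the other knockout clones below all wild type clones. The difference was thus -0.04 (adjusted p = 0.950), and -0.45 without clone H (adjusted p = 0.0329). Its dimmer probe sets gave 0.10 to 0.46 with all clones kept, and none passed. Dnajc3 therefore has no settled direction here.

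Of the 3 disulfide isomerases among the members, Pdia4 and Pdia6 rose. Pdia4 was read at 8.47, 8.67 and 8.40 in knockout clones, against 7.60, 7.60 and 7.30 in wild type clones. The groups were clearly apart, and Pdia4 rose by 1.01 (SE 0.13, adjusted p = 0.00557); a second, dim probe set gave -0.09, and the mean of both (0.46) did not pass. Pdia6 was read at 10.40, 10.43 and 10.53 in knockout clones, against 10.13, 9.99 and 10.02 in wild type clones, and rose by 0.41 (SE 0.10, adjusted p = 0.0319). With each array centred on its median it did not pass (0.33). Creld2, an ER-stress-induced folding factor, was read at 8.33, 8.15 and 8.11 in knockout clones, against 8.72, 8.70 and 8.70 in wild type clones. Its groups did not overlap, and it fell by 0.51 (SE 0.10, adjusted p = 0.0185). Hyou1, which exchanges nucleotide on BiP, was read at 7.95, 8.42 and 7.97 in knockout clones, against 8.72, 8.60 and 8.60 in wild type clones. These did not overlap at a difference of -0.53 (SE 0.15, adjusted p = 0.0577), which passed without clone H (-0.68, adjusted p = 0.00619), and its other probe sets gave 0.06 and 0.28. Manf, a secreted ER stress factor, differed by -0.24 with overlapping groups (SE 0.18, adjusted p = 0.395), and by -0.37 without clone H (adjusted p = 0.168).

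Of the 6 calls in this branch, those of Dnajb9 and Pdia4 held with any 1 clone left out. Pdia6 (0.37 to 0.45, adjusted p 0.0639 to 0.110) and Dnajb11 (-0.59 to -0.47, adjusted p 0.0539 to 0.0838) did not pass once any clone except H was left out. Sdf2l1 was lost without wild type clone E, F or I (-0.92 to -0.83, adjusted p 0.0610 to 0.0867), and Creld2 without those or knockout clone J (-0.51 to -0.47, adjusted p 0.0566 to 0.0703).

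From this branch 4 promoters that hold an ER stress element are printed, picked with their calls known: Hspa5 did not pass, Pdia6 rose, and Creld2 and Dnajb11 fell. Capitals mark the fixed letters of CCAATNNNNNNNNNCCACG, which reads on the opposite strand in Creld2, and in Dnajb11 those of its second form, which is ATTGG, any base and CCACG. From RefSeq (GRCm38.p6, plus strand), the stretches lie at chr2:34772005-34772063 for Hspa5, chr12:17266471-17266529 for Pdia6, chr15:88819500-88819558 for Creld2 and chr16:22857832-22857882 for Dnajb11.
Hspa5: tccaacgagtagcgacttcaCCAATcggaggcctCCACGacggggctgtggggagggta
Pdia6: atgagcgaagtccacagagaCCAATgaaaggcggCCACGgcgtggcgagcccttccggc
Creld2: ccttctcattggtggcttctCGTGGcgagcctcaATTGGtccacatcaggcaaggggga
Dnajb11: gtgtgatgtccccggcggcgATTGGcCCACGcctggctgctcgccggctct

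ER-associated degradation draws misfolded proteins out of the ER for the proteasome. Of its 8 genes, 2 rose, 1 fell and 5 did not pass, with a median difference of 0.07, where 9.04% of all genes rose and 10.0% fell. Derl2, a membrane protein of the exit channel, was read at 9.30, 9.33 and 9.20 in knockout clones, against 8.34, 7.99 and 8.08 in wild type clones. Every knockout clone lay above every wild type clone, and Derl2 rose by 1.14 (SE 0.12, adjusted p = 0.00321). Sel1l, the scaffold of the ubiquitin ligase, was read at 9.40, 9.63 and 9.49 in knockout clones, against 8.22, 8.52 and 8.71 in wild type clones. It rose by 1.02 (SE 0.15, adjusted p = 0.00753) without overlap, and its 5 probe sets gave 0.90 to 1.11, of which 4 passed. The ligase itself, Syvn1, was read at 9.10, 9.51 and 9.05 in knockout clones, against 8.79, 8.82 and 8.55 in wild type clones. Its groups did not overlap either, at a difference of 0.50 that did not pass (SE 0.16, adjusted p = 0.0752).

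Edem1 encodes a lectin-like protein that trims mannose from misfolded glycoproteins. It was read at 8.02, 7.73 and 7.72 in knockout clones, against 9.12, 9.04 and 8.88 in wild type clones. All knockout clones lay well below all wild type clones, and Edem1 fell by 1.19 (SE 0.13, adjusted p = 0.00323); a second probe set gave -0.47 and did not pass. Its relative Edem2 differed by 0.00 with overlapping groups (95% interval -0.26 to 0.26, adjusted p = 0.993). Derl1 differed by -0.14 (adjusted p = 0.589) and Derl3 by 0.14 (adjusted p = 0.563), both overlapping. All 4 probe sets of Derl1 had a negative difference, and the 2 whose names mark no shared sequence were called lower (-0.67 and -0.41). The direction of Derl1 is thus given by dimmer probe sets than the one chosen. The calls of Derl2, Sel1l and Edem1 held with any 1 clone left out. Herpud1, which recruits the degradation machinery, was read at 8.60, 9.26 and 8.71 in knockout clones, against 9.35, 9.13 and 9.28 in wild type clones. Clone H lay inside the wild type range, so the groups overlapped at a difference of -0.39 (SE 0.19, adjusted p = 0.205), and without it the gene passed at -0.60 (adjusted p = 0.0147). Its promoter is printed because no other of the 45 member windows held letters of both pathways: in capitals, first the ATF4 composite site on the opposite strand and then the second form of the ER stress element, at chr8:94386297-94386407 (plus strand, GRCm38.p6, RefSeq).
Herpud1: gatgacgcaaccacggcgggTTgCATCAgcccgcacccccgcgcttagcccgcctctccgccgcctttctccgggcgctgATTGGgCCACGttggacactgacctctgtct

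RefSeq promoter windows were matched for 40 of the 48 genes, in 45 windows, and no window was used for Hyou1, Manf, Derl1, Atf6, Slc7a5, Nars, Wars and Cars. The letters of the motifs were searched on both strands, and no matches of different motifs overlapped in a member. The ER stress element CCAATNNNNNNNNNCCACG stood in 7 of 12 chaperone windows (Calr, Canx, Creld2, Dnajc3, Hsp90b1, Hspa5 and Pdia6), in 2 of 8 degradation windows (Derl3 and Syvn1) and in 0 of 17 windows of amino acid genes. Of all 32851 promoter windows, 0.119% held it. Its second form stood in Dnajb11 and Herpud1 and in 0.0365% of all windows, and the unfolded protein response element core TGACGTG in Hspa5 alone among the members and in 2.01% of all. The ATF4 composite site TGATGNAA stood in 6 of 17 windows of amino acid genes (Trib3, Chac1, Vldlr, Asns, Aars and Gars), in Herpud1, in 0 of 12 chaperone windows and in 3.97% of all. A match is letters in a window and not a measured site.

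Genes that held the same letters were called in both directions. Of the 6 amino acid genes with the ATF4 composite site, Asns and Aars fell, Vldlr rose, and Trib3, Chac1 and Gars did not pass. Across the array, 468 tested genes held that site in a window, of which 42 (8.97%) fell and 33 (7.05%) rose. Over all genes tested, 10.0% fell and 9.04% rose. The ER stress element was held by 20 tested genes, 9 of them members, and 2 (10%) fell and 2 (10%) rose. For both motifs the shares lay near those over all genes, and the differences were not tested.

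**Figure D3:**
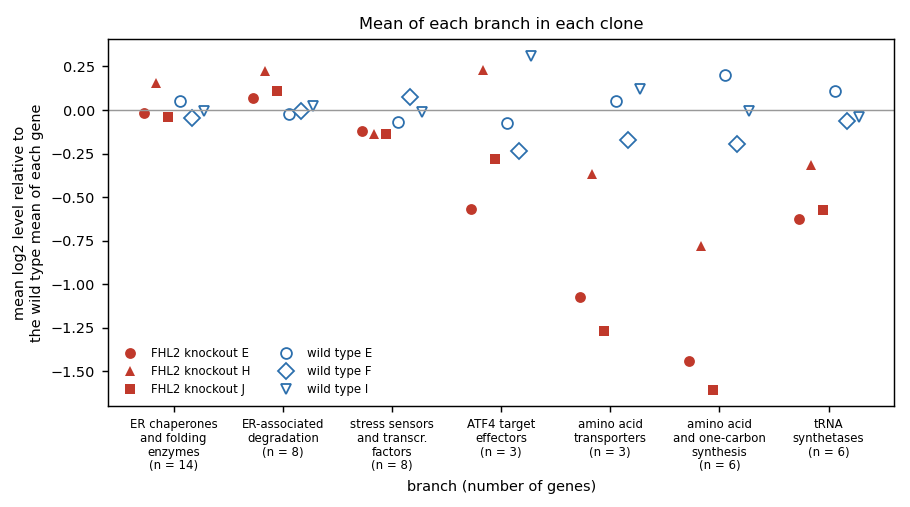
Mean log2 level of each branch in each clone, relative to the wild type mean of each gene, with filled red symbols for FHL2 knockout clones and open blue symbols for wild type clones. In amino acid and one-carbon synthesis, knockout clones lie at -1.44 (E), -0.78 (H) and -1.61 (J) with wild type clones at 0.20 (E), -0.19 (F) and -0.01 (I); clone H is the highest knockout clone there, and among chaperones, degradation genes and sensors all clones lie between -0.14 and 0.22.

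The knockout clones differed among themselves in the amino acid branches. In the mean of the 6 synthesis genes relative to wild type, clones E, H and J lay at -1.44, -0.78 and -1.61, against 0.20, -0.19 and -0.01 in the wild type clones. In the 3 transporters they lay at -1.07, -0.37 and -1.27, against 0.05, -0.17 and 0.12 in wild type. The tRNA synthetases lay at -0.62, -0.31 and -0.57 in knockout clones, against 0.11, -0.07 and -0.04 in wild type clones. Clone H was thus nearest to wild type in each of these branches while remaining below all wild type clones. For the effectors clone H lay at 0.23 with the other knockout clones at -0.57 and -0.28, and lay inside the wild type range of -0.23 to 0.31.

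Gene by gene, clone H had the knockout value closest to the wild type mean in 6 of 6 synthesis genes, and in 14 of the 18 amino acid genes (77.8%). Over all genes tested the share was 42.6%, and among all genes called lower it was 52.1%. The sensors and transcription factors had clone H nearest in 6 of 8, the chaperones in 7 of 14 and the degradation genes in 1 of 8. In branch means, where rises and falls offset each other, clones were closer together in the ER branches: chaperones lay at -0.02, 0.15 and -0.04 in knockout clones, against 0.05, -0.04 and -0.01 in wild type clones, and degradation genes at 0.07, 0.22 and 0.11 in knockout clones, against -0.02, 0.00 and 0.02 in wild type clones. Genes of a branch share their arrays, so these shares are given without a test.

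The same pathways hold further genes, which were read from the same fit in 6 lists. Like the members, these lists were chosen with earlier results of these data known, so their counts are no independent check on the members. Of 113 listed genes 105 were measured, and 27 fell, 6 rose and 72 did not pass. Over all genes tested, 10.0% fell and 9.04% rose. Of 23 other ATF4 targets, 9 fell and 1 rose (median -0.75), and of 13 other cytosolic tRNA synthetases, 8 fell and 0 rose (median -0.87). Cth, which makes cysteine from cystathionine, was read at 4.54, 7.23 and 5.55 in knockout clones, against 9.43, 8.50 and 9.80 in wild type clones. Clone H again stood above the other knockout clones without reaching wild type, and Cth fell by 3.47 (SE 0.69, adjusted p = 0.0192). Mthfd1l, a mitochondrial one-carbon enzyme, fell by 1.65 (adjusted p = 0.0425), and Gpt2, an alanine aminotransferase, by 1.43 (adjusted p = 0.00714). The neutral amino acid transporter Slc43a1 rose by 0.71 (adjusted p = 0.0341), with every clone below the median gene level of 5.92. Among the synthetases Rars fell by 1.48 (adjusted p = 0.00324), Hars by 1.21 (adjusted p = 0.0198) and Sars by 0.999 (adjusted p = 0.0126).

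The ER lists held calls in both directions, apart from the further degradation genes, and had medians near 0. Their counts are to be read beside the 10.0% of all genes that fell and the 9.04% that rose. Of 18 other folding and redox genes, 3 fell and 1 rose (median -0.02). Both ER oxidases fell, Ero1l by 1.63 (adjusted p = 0.00726) and Ero1lb by 1.08 (adjusted p = 0.00252), as did the disulfide isomerase Pdia5 by 1.31 (adjusted p = 0.00374), while the prolyl isomerase Fkbp14 rose by 1.73 (adjusted p = 0.00424). The probe set of Ero1lb was dim, at 4.22, 4.29 and 4.26 in knockout clones, against 5.28, 5.24 and 5.50 in wild type clones. All lay below the median gene level of 5.92. Of 19 translocation and traffic genes, 3 fell and 3 rose (median -0.11). The translocon partners Sec62 and Ssr3 and the signal peptidase subunit Spcs2 rose by 0.77, 0.57 and 0.50 (adjusted p = 0.0174, 0.0130 and 0.0211). Sec63, the retrieval receptor Kdelr3 and the coat subunit Sec13 fell by 0.92, 0.80 and 0.50 (adjusted p = 0.0427, 0.0290 and 0.0438). Of 15 further degradation genes, 2 fell (median -0.04): the ubiquitin-conjugating enzyme Ube2j2 by 1.24 (adjusted p = 0.00326) and the ligase Rnf5 by 0.50 (adjusted p = 0.0215). Of 17 other regulators, 2 fell and 1 rose (median 0.08). Creb3l2, an ER-bound transcription factor, rose by 1.23 (adjusted p = 0.00387), and Eif2ak2, the eIF2 kinase PKR that interferon also induces, fell by 1.23 (adjusted p = 0.0111), as did the bZIP factor Cebpb by 0.71 (adjusted p = 0.0430).

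Of these 22 named genes, Creb3l2, Eif2ak2, Ero1l, Ero1lb, Fkbp14, Gpt2, Pdia5, Rars, Sars and Ube2j2 passed with any 1 clone left out. When wild type clone E was left out, none of the other 12 passed (adjusted p 0.0512 to 0.142). Without knockout clone E 9 of them were lost (adjusted p 0.0549 to 0.121), without knockout clone J 9 (adjusted p 0.0579 to 0.133), without wild type clone F 8 (adjusted p 0.0506 to 0.125), without wild type clone I 6 (adjusted p 0.0577 to 0.126), and without knockout clone H Sec13 alone (adjusted p = 0.0510). With the mean of probe sets Hars (-0.79, adjusted p = 0.0537) and Sec63 (-0.53) did not pass, and Ero1lb passed at -0.54. After repeated quantile normalization Sec13 (-0.44, adjusted p = 0.0628) and Cebpb (-0.65, adjusted p = 0.0525) did not pass. Once cross-hybridizing probe sets were omitted, Hars (-0.37), Sec63 (-0.32) and Ube2j2 (-0.72) did not pass. With the second highest probe set those 3 did not pass at the same values, nor did Fkbp14 (0.27), Ero1lb (-0.43), Creb3l2 (0.47), Spcs2 (0.41) and Ssr3 (0.21).

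**Figure D4:**
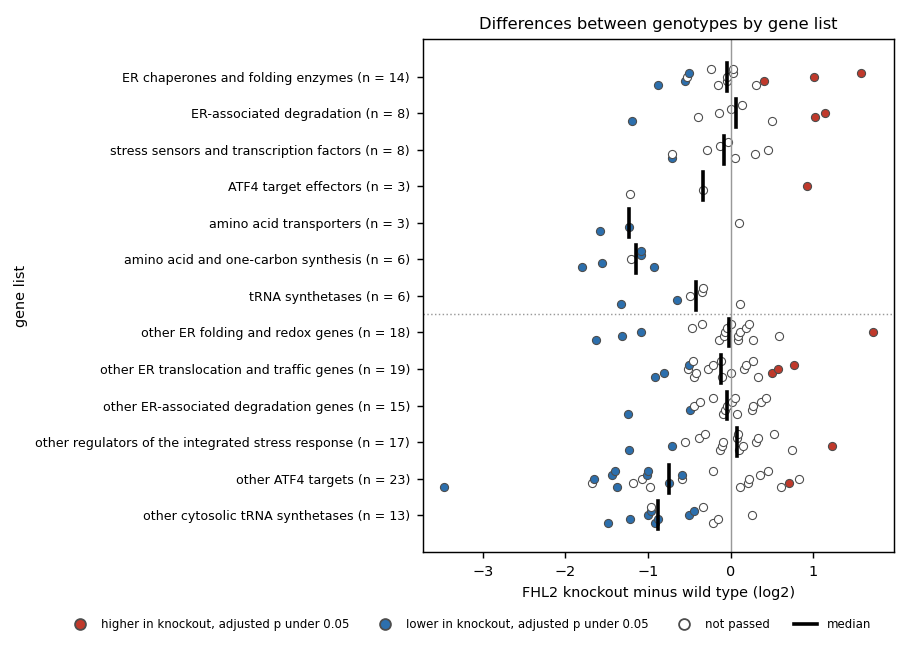
Difference of each gene, FHL2 knockout minus wild type in log2 units, by branch of the 48 genes (above the dotted line) and by list of other genes of the same pathways (below it); red is called higher and blue called lower at an adjusted p under 0.05, open circles did not pass, and the black bar is the median. The medians of transporters (-1.23), synthesis (-1.15), other ATF4 targets (-0.75) and other tRNA synthetases (-0.87) lie left of 0, and those of chaperones, degradation genes and the other ER folding, traffic and degradation genes lie between -0.11 and 0.07.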

How the data were processed

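Biotin-labelled target was made from the RNA of 6 fibroblast clones with a one-cycle 3' kit, per the labels, and hybridised to 1-colour Affymetrix arrays. The deposited values are log2 intensities that the authors made with RMA, per the submitters' processing notes; the sources used here give neither its version nor its settings. Wild type clone E is written with more decimals than the other clones, and whether it was processed separately is not given.

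Control probe sets (64), those with several symbols (932) and those without a symbol (9160) were left out. Of the remaining 34945, the brightest probe set by the mean of all arrays stood for each of 18193 genes; 34741 were found in RefSeq by gene ID, with 0 symbols changed. No gene was left out for a low level. The comparison of genotypes used limma (version 3.58.1, R 4.3.3; lmFit, eBayes, genotype as the only term, 4 residual degrees of freedom), with Benjamini-Hochberg adjustment over all genes at 0.05. Arrays carry no read depth; precision is limited by their number, and the median gene had an SE of 0.141. The pipeline was tested on simulated data. Plots were made with Python 3.11.15 and matplotlib 3.10.9.

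The members, branches and lists were chosen with earlier results of these data known. Named were all 48 members, Fhl2, the sex-linked transcripts, and from each of 6 further lists at most 3 genes passed in each direction with the largest difference. Alternatives were a trended robust prior, repeated quantile normalization, median centring, genes at or above the median level, the mean or the second highest of a gene's probe sets, omission of the _x_at, _s_at and _a_at probe sets, which can cross-hybridize, array weights, a difference of at least 1, and each clone left out. Promoter windows and genome coordinates are RefSeq's for GRCm38.p6.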

Additional observations from a re-analysis of the deposited data

How the results depend on the processing

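Of the 20 members that passed, 10 (Pdia4, Dnajb9, Sel1l, Derl2, Edem1, Slc7a1, Phgdh, Psph, Shmt2 and Nars) passed with any 1 clone left out. Of these, 8 passed in every setting run that gave them a value, Pdia4 and Edem1 being the exceptions. Phgdh, like Psat1, has no value without cross-hybridizing probe sets, and Dnajb9 and Psph have none with the second highest. Over 649 values of members, 575 kept their side of the threshold, 48 lost and 25 gained the call, and Pdia4 reversed with the second highest probe set (-0.0903). Of the 575, 543 kept their direction and 32, on 11 members that passed in neither fit, changed sign. With all clones kept, Pdia4 and Aars were lost with the mean of probe sets, Pdia6 with median centring, Vldlr without cross-hybridizing probe sets, and Edem1 and Aars with the second highest probe set. Gained were Hyou1, Ddit3 and Mars with median centring, with genes at or above the median level and with array weights, Herpud1, Trib3, Psat1 and Wars with array weights, Wars also with the mean of probe sets, Syvn1 with repeated quantile normalization, and Derl1 without cross-hybridizing probe sets.

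The second highest probe set tested only the 9010 genes with several probe sets, 35 of them members, gained Derl1, and called 8 members lower, 1546 genes in all and 12 of the other pathway lists. A difference of at least 1 left 1495 genes. With 1 clone left out, 6 to 21 members were called lower, 1661 to 4750 genes in all and 15 to 47 genes of the other lists.

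Medians near 0 had no stable sign. That of chaperones was 0.0212 with the mean of probe sets, 0.0284 without cross-hybridizing ones, 0.0732 with the second highest, and -0.0809 to 0.00506 with 1 clone left out. That of degradation genes was -0.00620 with median centring and -0.00159 to 0.147 with 1 clone left out. That of sensors was 0.00671 with the second highest probe set. Without cross-hybridizing probe sets that of the effectors was 0.137, over Chac1 and Vldlr alone, since both probe sets of Trib3 were omitted. That of tRNA synthetases was -0.566 to -0.335 with 1 clone left out. Some of these medians cover fewer genes than the branch holds. With the second highest probe set the chaperones lack Dnajb9, Dnajb11, Sdf2l1, Manf and Creld2. Each has 1 probe set, as has Atf5, which the sensors lack in that setting. Without cross-hybridizing probe sets the chaperones lack Hspa5, Hsp90b1 and Calr. The part of the missing genes in these shifts, and any other cause, was not tested.

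Estimated array weights gave knockout clone H 0.386 and the other clones 1.07 to 1.56. Fhl2, read by 1 probe set whose name ends in _a_at, has no value in the settings on further or cross-hybridizing probe sets. No paired analysis was possible because the clone letters of the groups share only E. Protein, splicing and phosphorylation were not measured, and signal far below the median gene level limits what can be read from dim probe sets.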
